A study of Mus musculus with 9 samples.

Results

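Of 43629 genes listed for RAW264.7 cells, 209 were at or near zero in every library of untreated cells and of cells given lipopolysaccharide, and were clearly present in every library of cells given sodium butyrate together with lipopolysaccharide. They were selected by their measured levels: at least 30 normalised counts in each of the 3 LPS+NaBu libraries and below 10 in each of the 3 LPS and each of the 3 control libraries. A normalised count is the number of reads of a gene divided by 1 size factor per library, so that libraries of different depth can be compared. Because these levels chose the genes, they are given as a description and support no test.

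RAW264.7 cells are mouse macrophage-like cells made immortal by the Abelson leukaemia virus. Transcripts were sequenced in 9 libraries, in 3 groups of 3: LPS+NaBu (lipopolysaccharide, the endotoxin of Gram-negative bacteria, after pretreatment with sodium butyrate), LPS alone, and untreated control. The labels give neither dose nor time, and cells given NaBu but no LPS were not analysed here, so an effect of NaBu alone and one that needs both agents cannot be told apart. All 9 libraries come from the same cultured line, replicates are described as biological without saying whether cultures were separate, and p-values therefore measure only the spread between these libraries.

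Sodium butyrate is the salt of a short-chain fatty acid made by gut bacteria, and it inhibits histone deacetylases. These enzymes remove acetyl groups from histone tails, and repressors recruit them to keep genes of other lineages silent; REST, for example, holds neuronal genes off in non-neuronal cells. Inhibitors of these enzymes raise histone acetylation across the genome, and silent genes with little else in common can then be transcribed.

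The label "detected only with butyrate" fits part of the data. Only 13 of the 209 genes had 0 reads in all 6 LPS and control libraries. A further share had none in 1 of those groups: counting those 13, 50 genes had no read in the 3 LPS libraries and 24 had none in the 3 control libraries. The genes were therefore near silence, not always at zero. Between 88 and 115 of the 209 had a read in single LPS libraries and between 131 and 146 in single control libraries. Summed over all 209 genes, normalised counts were 22618, 22374 and 21938 in LPS+NaBu, 390.0, 465 and 387 in LPS and 547, 553 and 514 in control. Even in LPS+NaBu this sum was only 0.0509% to 0.0511% of all counts. Library totals ran from 37.6 to 64.4 M reads, and the value of 1 read was 0.688 to 1.41 normalised counts, so a value near 10 rests on few reads.

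**Figure D1:**
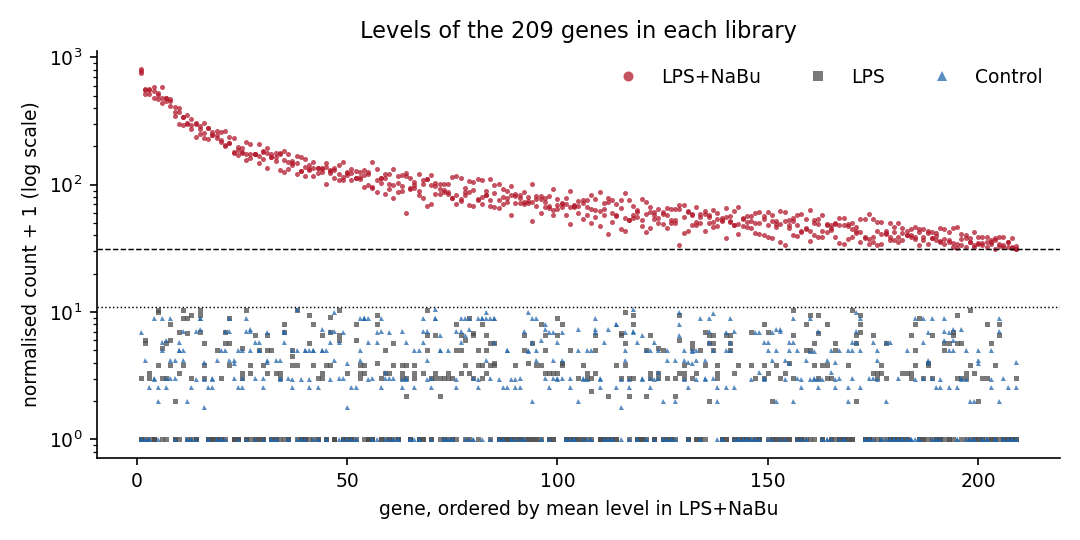
Levels of the 209 genes in each of the 9 libraries, as normalised count + 1 on a log scale, with genes ordered by their mean in LPS+NaBu. Each point is 1 gene in 1 library, and the dashed and dotted lines mark the limits of 30 and 10 that chose the genes, so the gap between the red LPS+NaBu points and the others is set by the rule.

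The first 4 genes by level show what kinds of genes these are: Kcnh3, a voltage-gated potassium channel of forebrain neurons; F11r, an adhesion molecule of epithelial tight junctions; BC021614, a member of the pi-class glutathione transferases now named Gstp3; and Celf5, a splicing regulator of the brain. The 150 bases before the annotated start site of each, read 5′ to 3′ on the gene's own strand from GRCm39, are shown because CpG content at the start is compared for the whole set further on. CG pairs, the sites of DNA methylation in mammals, are in capitals.
Kcnh3 (chr15:99122075-99122224, plus strand): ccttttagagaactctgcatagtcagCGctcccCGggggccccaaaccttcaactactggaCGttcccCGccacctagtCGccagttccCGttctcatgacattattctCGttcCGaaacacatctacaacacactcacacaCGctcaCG
F11r (chr1:171264942-171265091, plus strand): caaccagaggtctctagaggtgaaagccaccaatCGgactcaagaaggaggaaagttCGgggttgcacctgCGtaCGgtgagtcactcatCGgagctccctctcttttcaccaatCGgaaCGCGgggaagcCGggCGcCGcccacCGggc
BC021614 (chr19:4109296-4109445, minus strand): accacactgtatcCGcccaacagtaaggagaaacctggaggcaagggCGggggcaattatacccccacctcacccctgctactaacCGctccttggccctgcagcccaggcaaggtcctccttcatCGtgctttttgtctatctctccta
Celf5 (chr10:81318560-81318709, minus strand): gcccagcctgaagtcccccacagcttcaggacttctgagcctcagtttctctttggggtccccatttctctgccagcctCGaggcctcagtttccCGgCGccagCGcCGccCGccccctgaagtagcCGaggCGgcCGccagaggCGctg
Kcnh3, F11r and Celf5 hold 10, 12 and 10 CG pairs in this stretch, and BC021614 holds 4. The number of CG pairs just before the start thus differed among these 4 genes. By the wider measure defined further on, Kcnh3 (ratio 0.713) and Celf5 (0.634) had CpG-rich starts. F11r (0.583) and BC021614 (0.264) did not.

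Mean levels in LPS+NaBu ran from 30.7 to 781 normalised counts, with a median of 66.7 and quartiles of 47.5 and 116. Most of the genes were therefore weakly expressed: 146 reached a mean of 50, 63 reached 100, 22 reached 200 and 5 reached 500. In LPS the median over the 209 genes was 1.45 and in control 2.26. Per kilobase of exon, the scale on which genes of different length can be compared, the median LPS+NaBu level was 15.6 for these genes and 170 for the 14372 other tested genes with an exon length. The highest per kilobase was BC021614 at 232, and the lowest was Etl4 at 2.05. The median coefficient of variation among the 3 LPS+NaBu libraries was 13.7%, against 9.86% for the 4468 other tested genes in the same range of levels. Its range over the 209 genes was 0.405% to 36.2%.

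Across all 14808 tested genes (at least 10 normalised counts in at least 3 libraries), 40.2% were called higher with LPS+NaBu than with LPS and 40.9% higher than in control, by limma on log2(normalised count + 1) at an adjusted p under 0.05. All 209 genes passed that filter through the LPS+NaBu libraries alone, and all 209 were called higher in both comparisons. Since the rule fixed this outcome, nothing is read from it. Their median log2 difference was 5.15 against LPS and 4.84 against control, beside 0.02 and 0.09 for all tested genes. Both comparisons share the LPS+NaBu libraries.

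Read the other way round, the same limits found far fewer genes. Only 20 genes were at or above 30 in every LPS library and below 10 in every LPS+NaBu and control library, and they included the interferon Ifnb1, the interferon-induced Ifi44l and Gbp4 and the complement factor Cfb. Ifi44l, the highest of them, averaged 4.50 normalised counts in LPS+NaBu, 1470 in LPS and 3.06 in control. A single gene, Ranbp3l, met the limits for control alone, and 5 genes were at or above 30 in all LPS and control libraries and below 10 in all LPS+NaBu libraries. Those 5 were Gm13160, Gm15156, Gm7931 and the olfactory receptors Olfr933 and Olfr934. In all, 28706 genes were below 10 in every LPS and control library, and the 209 are 0.728% of them. Of the protein-coding genes in that pool, 207 of 8852 (2.34%) were in the set, so the great majority of genes silent in these macrophages stayed below the limits with LPS+NaBu. The 2 that are not protein-coding are a long non-coding RNA and a transcribed pseudogene.

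By the tissue or function in which each gene is best known, assigned by hand after the names were seen, 31 genes belong to nerve cells and glia, 23 to epithelia, 21 to liver, kidney and metabolism, 21 to cilia and germ cells, 20 to connective tissue and vessels, 18 to lymphocytes and other blood cells, 9 to sense organs and 7 to muscle. A further 24 are used in many tissues and 35 were not assigned. Genes outside the set were not classed, so these counts cannot show whether a class is more frequent here than among silent genes generally. Nerve cell genes were the most numerous assigned class, but 143 of the 174 assigned genes fell elsewhere, so no lineage made up most of the set. Their median level was also the highest of the classes, at 93.9 normalised counts, against 53.7 in connective tissue and vessels, the lowest. These counts are not divided by exon length, so they do not rank the classes per kilobase.

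**Figure D2:**
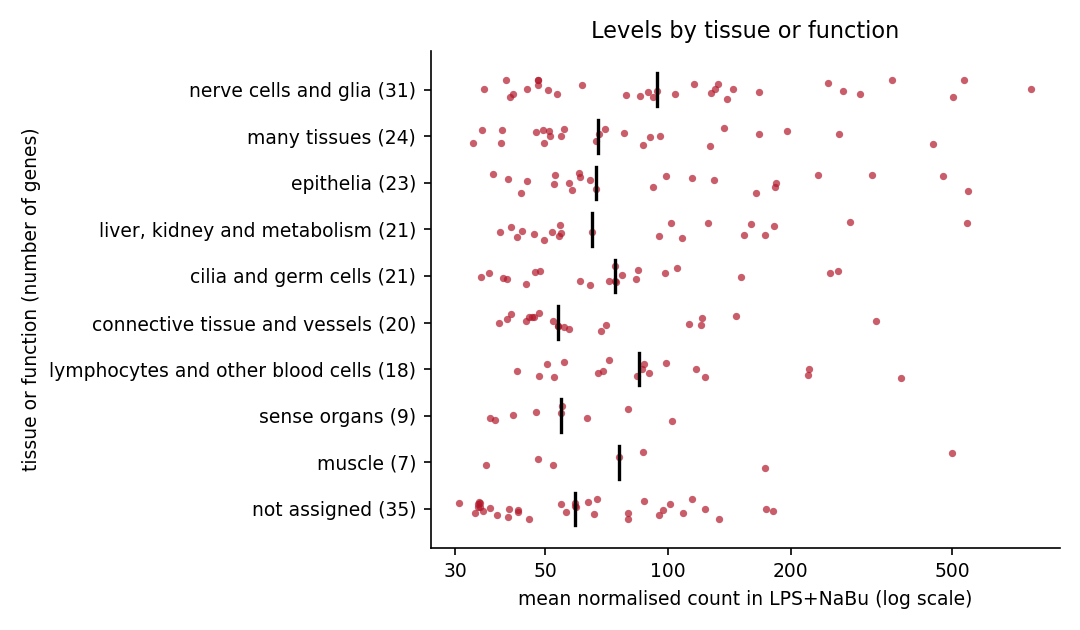
Mean normalised count in the 3 LPS+NaBu libraries (log scale) of each of the 209 genes, grouped by tissue or function, with the number of genes in parentheses. Each point is 1 gene, spread vertically for legibility, and the black bar is the class median, from 53.7 in connective tissue and vessels to 93.9 in nerve cells and glia.

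Among the nerve cell genes were channels and what controls them. Kcnh3 had 751, 805 and 786 normalised counts in LPS+NaBu, against 2.01, 0 and 0 in LPS and 0, 6.0 and 0 in control. That is 1168 times the LPS level, with an interval of 323 to 9648 from counting error alone because LPS held only 2 reads. Rem2, a small GTPase that restrains voltage-gated calcium channels, had 325, 291 and 273 in LPS+NaBu, against 2.01, 0 and 8.47 in LPS and 1.59, 0 and 0 in control. The channels of this set were of several kinds: 10 genes encode ion channels or their subunits, among them Hcn3 (a hyperpolarisation-activated cation channel), the T-type calcium channel Cacna1g, the potassium channels Kcnk3 and Kcnn3, the heart potassium channel subunit Kcnip2, the rod channel subunit Cngb1 and the proton channel Otop2. The median level of these 10 genes was 86.0. By symbol, potassium channel genes gave 4 of 72 below 10 without NaBu (5.56%). Sodium and calcium channel genes gave 2 of 31 (6.45%), beside 2.34% of all such protein-coding genes. Ligand-gated channel and receptor genes gave 0 of 73, and synaptotagmins, SNAREs and synapsins 0 of 23.

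Other nerve cell genes serve the cytoskeleton, adhesion, guidance and splicing. Celf5 had 584, 544 and 474 normalised counts in LPS+NaBu, none in LPS, and 7.95, 2.0 and 2.01 in control, which puts it at least 149-fold higher than in LPS, taking a floor of 3 reads per library. Igsf9, an immunoglobulin-family adhesion protein of dendrites, had 525, 506 and 472 in LPS+NaBu, against 9.02, 9.39 and 2.82 in LPS and 1.59, 1.0 and 0 in control. Tubb3, the beta-tubulin used as a marker of neurons, had 289, 248 and 270.3 in LPS+NaBu, against 6.02, 9.39 and 8.47 in LPS and 6.36, 8.0 and 8.05 in control. Tubb3 thus lay just under the limit of 10 in the cells without NaBu. Atcay, a brain protein mutated in cerebellar ataxia, had 246, 263 and 231 in LPS+NaBu, against 4.01, 0 and 0 in LPS and 3.18, 0 and 0 in control. Axon guidance was represented by Sema3b, Sema3f, Sema4f and Epha10, 4 of the 38 ephrin, Eph, semaphorin, plexin, netrin and slit genes that were below 10 without NaBu (10.5%, beside 2.34% of all such protein-coding genes). Sema3f, a secreted repellent of growing axons, had 164, 127 and 128 in LPS+NaBu, none in LPS and 0, 2.0 and 0 in control. The somatostatin receptors Sstr2 and Sstr3 averaged 144 and 127 in LPS+NaBu.

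Epithelial genes in the set encode parts of junctions and of the skin barrier. F11r had 518, 555 and 565 normalised counts in LPS+NaBu, against 5.01, 4.69 and 0 in LPS and 3.18, 0 and 0 in control. Liph, a lipase needed for hair growth, had 481, 456 and 482 in LPS+NaBu, against 2.01, 4.69 and 0 in LPS and 1.59, 5.0 and 2.01 in control. Ppl, the plakin that ties desmosomes to the cornified envelope, had 304, 349 and 300.2 in LPS+NaBu, against 8.02, 5.87 and 0 in LPS and 0, 0 and 1.01 in control. By the rule that chose the set, none of these genes reached 10 in a library without NaBu. Cldn9, a claudin of tight junctions, averaged 234 in LPS+NaBu, and Scel, Dmkn and Pnpla1, all of the epidermis, averaged 185, 183 and 98.6. Muc2, the main mucin of the intestine, and Lamb3, a laminin chain of epithelial basement membranes, were among the lower ones at 52.7 and 37.2. Of the 108 keratin and keratin-associated genes below 10 without NaBu, 0 were in the set, beside 2.34% of all such protein-coding genes.

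Genes of liver, kidney and metabolism were led by BC021614, with 565, 512 and 557 normalised counts in LPS+NaBu, against 2.01, 2.35 and 0 in LPS and 1.59, 0 and 0 in control. As a member of a family of close copies its reads may be shared with other Gstp genes. Mogat2, which rebuilds triglycerides from absorbed fat in the intestine, had 298, 306 and 235 in LPS+NaBu, none in LPS and 0, 2.0 and 6.04 in control. Lipid handling recurs here: Plin5, a lipid droplet protein, Apoa5, a liver apolipoprotein of triglyceride clearance, and Ppara, the nuclear receptor of fatty acid oxidation, averaged 160, 108 and 46.8 in LPS+NaBu. Fn3k, which repairs glycated proteins, averaged 173.

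Genes of cilia and germ cells included several parts of the moving axoneme. Dkkl1, a protein of the sperm acrosome, had 277, 280.0 and 226 normalised counts in LPS+NaBu, none in LPS and 1.59, 0 and 0 in control. Ccdc65, a subunit of the dynein regulatory complex of motile cilia, had 259, 246 and 246 in LPS+NaBu, none in LPS and 1.59, 2.0 and 2.01 in control. The dynein heavy chains Dnah10 and Dnah2, the kinesin Kif27 and the dynein docking subunit Ccdc151 averaged 98.1, 74.2, 105 and 74.1. Kinesins, dyneins and tubulins contributed 4 of the 27 of their genes that were below 10 without NaBu (14.8%), beside 2.34% of all such protein-coding genes. These 4 were Dnah2, Dnah10, Kif27 and Tubb3, the last of which is in the nerve cell class. Tex19.1, a germ cell regulator of retrotransposons, averaged 77.0, and 2 histone genes, Hist2h3c2 and Hist1h4a, averaged 49.2 and 38.9, both with near-identical copies that may share reads.

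Connective tissue and vessels contributed matrix proteins, growth factors and receptors. Bmp8a, a bone morphogenetic protein, had 336, 294 and 340.1 normalised counts in LPS+NaBu, against 8.02, 9.39 and 2.82 in LPS and 3.18, 4.0 and 6.04 in control. Col1a1, the main chain of type I collagen, had 152, 146 and 141 in LPS+NaBu, against 4.01, 3.52 and 2.82 in LPS and 1.59, 2.0 and 4.02 in control. Its partner in the collagen trimer, Col1a2, was not in the set and averaged 2.27 in LPS+NaBu, 0.668 in LPS and 0 in control. The platelet-derived growth factor receptors Pdgfrb and Pdgfra averaged 68.4 and 46.2, and the lymphatic receptors Flt4 and Lyve1 averaged 53.6 and 41.1. Fstl3, an inhibitor of activins, averaged 121.

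Genes of lymphocytes and other blood cells included a receptor of macrophages themselves. Mertk, the receptor with which macrophages recognise dying cells, had 342, 373 and 406 normalised counts in LPS+NaBu, against 1.0, 0 and 0 in LPS and 3.18, 0 and 2.01 in control. Tcf7, which encodes the T cell factor TCF-1, had 204, 199 and 264 in LPS+NaBu, against 6.02, 4.69 and 0 in LPS and 0, 4.0 and 6.04 in control. Tspan33, a tetraspanin of B cells and erythroid cells, averaged 221, and Entpd1, the ectonucleotidase CD39, averaged 124. Hba-a1, an alpha globin of red cells with a near-identical copy, averaged 83.7 in LPS+NaBu, while the beta globin Hbb-bs had 0 reads in all 9 libraries. H2-Ea-ps, Oas1e and Ceacam10 also belong to families of close copies and are uncertain for that reason.

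The remaining classes were small. Dysf, the membrane repair protein of muscle, had 179, 182 and 158 normalised counts in LPS+NaBu, against 0, 0 and 2.82 in LPS and 1.59, 0 and 2.01 in control. It averaged 173 in LPS+NaBu and Cryab, a small heat shock protein of lens and muscle, 86.6. Sense organ genes averaged at most 102 normalised counts, for Rgs9, which speeds the recovery of photoreceptors. The hair cell protein Ush1g averaged 54.9. Shf, an adaptor protein used in many tissues, had 455, 473 and 417 in LPS+NaBu, against 5.01, 7.04 and 2.82 in LPS and 3.18, 8.0 and 2.01 in control. Rab26 and Usp44, a Rab GTPase of secretory granules and a deubiquitinase of mitosis, averaged 264 and 167.

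**Figure D3:**
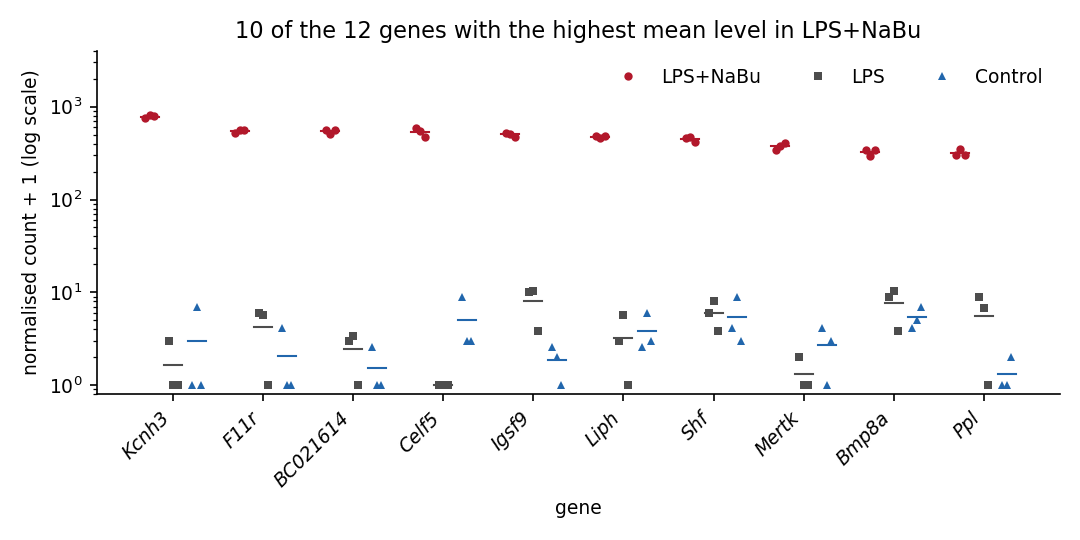
Normalised count + 1 (log scale) in each library for 10 of the 12 genes with the highest mean in LPS+NaBu. Points are single libraries and lines are group means, and LPS+NaBu means ran from 318 for Ppl to 781 for Kcnh3. By the rule that chose the genes, no LPS or control library reached 10.

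Transcription factors of the set were present at low levels. Of the 209 genes, 15 were counted as such, with a median of 52.4 normalised counts in LPS+NaBu and a highest value of 222 for Tcf7. By symbol, homeobox genes gave 0 of 104 below 10 without NaBu, and Sox, Fox, Gata, Tbx and Klf genes 1 of 74 (1.35%). Zinc finger genes gave 1 of 78 (1.28%) and T-box, bHLH and proneural genes 2 of 29 (6.90%). The share of all such protein-coding genes was 2.34%. Neurog2, the proneural factor, had 58.4, 50.2 and 75.3 in LPS+NaBu and 0 reads in all 6 other libraries, which is at least 17.1-fold higher than LPS and at least 21.9-fold higher than control. Prdm1, which encodes the plasma cell factor Blimp-1, had 52.3, 51.3 and 53.5 in LPS+NaBu, with 0 reads elsewhere. Snai3, a Snail family repressor, was the second highest of the 15 at 112, with single values of 95.6, 148 and 93.4. Others were Ets1, Spib and Batf3 of lymphoid and dendritic cells, Elf3 of epithelia, Foxa3 of liver, Ppara, Hes2, Mycl and the clock factor Arntl2.

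Of the genes with 0 reads in all 6 LPS and control libraries, the 5 highest were Abcc6, Pnpla1, Entpd3, Tmem169 and Neurog2. Abcc6, a liver transporter of the ABC family that drives ATP release, had 117, 101 and 86.2 normalised counts in LPS+NaBu, at least 28.3-fold higher than LPS and at least 36.2-fold higher than control. Pnpla1, an enzyme of the lipid barrier of skin, had 90.8, 113 and 92.5 in LPS+NaBu. Tmem169 was the steadiest of the 5, with 66.7, 65.8 and 68.0. Receptors formed a group of 13 with a median of 57.2, and ligands or their binding proteins a group of 7 with a median of 121, led by Mertk and Bmp8a.

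At the borders the set turned on small differences. Just inside the lower limit were Pxylp1, Etl4 and Mapkapk3, whose lowest LPS+NaBu values were 30.1, 30.3 and 30.9. Just outside were Fer1l4, Fam71f1 and Gm13073 at 29.6, 29.6 and 29.0. On the other side, Sstr2, Cabp1 and 2810408A11Rik each reached 9.54 in 1 control library, and Tmem53, Smim1 and Nxph3 missed the set because a library just reached 10. With no upper demand beyond 10 in every LPS+NaBu library, 561 genes would have qualified.

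Libraries with NaBu did not hold the wider programmes of the cell types named above. For neurons, 1 of 10 defining markers (Tubb3) was in the set, while Syt1, Snap25 and Stmn2 had 0 reads in all 9 libraries. Slc17a7, the vesicular glutamate transporter of excitatory neurons, missed the limit of 10 without NaBu but differed more than the median gene of the set: it averaged 1418 ± 138 normalised counts in LPS+NaBu, 14.5 ± 2.94 in LPS and 15.7 ± 3.28 in control (SD, n = 3 each), a log2 difference of 6.53 ± 0.22 (SE) from LPS with a limma adjusted p of 1.31e-11. The summed level of the 10 neuron markers was 1556 to 1850 in LPS+NaBu, 22.6 to 31.7 in LPS and 21.5 to 33.2 in control, nearly all of it from Slc17a7 and Tubb3. For epithelium, 0 of 8 markers reached 10 in LPS+NaBu on average, with a sum of 11.2 to 22.7 in LPS+NaBu, 2.01 to 2.82 in LPS and 3.18 to 6.0 in control, and Krt5 and Krt14 had no read in any library. For fibroblasts, 3 of 7 markers were in the set (Col1a1, Pdgfra and Pdgfrb), while Lum had 0 reads in all libraries and Dcn none in LPS+NaBu. Of 4 hepatocyte markers, Alb, Ttr and Cyp2e1 had 0 reads in all 9 libraries, and the sum was 1.38 to 7.26 in LPS+NaBu and 0 elsewhere. Of 6 skeletal muscle markers, Myod1 and Myog had 0 reads in all libraries, while Ttn averaged 59.4 in LPS+NaBu, 40.5 in LPS and 49.7 in control. The sum of the muscle list was 67.4 to 74.4 in LPS+NaBu, 25.8 to 52.1 in LPS and 54.3 to 63.6 in control. Among 6 germ cell markers Dazl had 0 reads in all libraries. Stra8, which starts meiosis, averaged 15.97 ± 2.59 in LPS+NaBu, 1.34 ± 2.32 in LPS and 0.53 ± 0.918 in control. It passed the filter through the LPS+NaBu libraries alone, so its values are a description and no test is read from them. Among 4 B cell markers Ms4a1 had 0 reads in all libraries, while both chains of the B cell receptor complex were higher at low levels. Cd79a averaged 21.0 ± 2.85 in LPS+NaBu, 4.68 ± 3.06 in LPS and 5.47 ± 2.85 in control. Like Stra8, it passed the filter through the LPS+NaBu libraries alone, and no test is read from it. Cd79b averaged 21.9 ± 3.56 in LPS+NaBu, 1.45 ± 1.27 in LPS and 5.73 ± 5.46 in control, with limma adjusted p of 0.000304 and 0.0107, the last of which was 0.0511 without LPS+NaBu replicate 3. The part of cells of another type in the levels of the 209 genes was not tested. In bulk RNA, a few cells with much of a transcript and many cells with little of it cannot be told apart.

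Among the other lineage markers tested, Epor, the erythropoietin receptor, averaged 444 ± 35.6 normalised counts in LPS+NaBu, 25.7 ± 9.55 in LPS and 64.2 ± 19.9 in control (SD, n = 3 each), a log2 difference of 4.12 from LPS and 2.82 from control, with limma adjusted p of 1.39e-08 and 7.25e-07. Syp, a protein of synaptic vesicles, averaged 170 ± 19.8 in LPS+NaBu, 79.9 ± 9.82 in LPS and 78.7 ± 3.69 in control, and rose by 1.08 on the log2 scale against LPS with a limma adjusted p of 4.52e-05. The glial gene Gfap averaged 61.0 ± 10.5 in LPS+NaBu, 20.2 ± 5.30 in LPS and 16.9 ± 0.975 in control, a log2 difference of 1.57 from LPS with a limma adjusted p of 0.000211. Macrophage markers moved the other way. All 9 tested (Cd14, Csf1r, Cd68, Itgam, Lyz2, Ptprc, Spi1, Fcgr1 and Mpeg1) fell in both comparisons, with a median log2 difference of -2.67 from LPS and -1.25 from control, beside 37.8% and 35.1% of all tested genes called lower. Spi1, which encodes the master factor PU.1, averaged 2382 ± 175 in LPS+NaBu, 16652 ± 1295 in LPS and 13413 ± 404 in control, a log2 difference of -2.80 from LPS with a limma adjusted p of 4.41e-13. Macrophage transcripts were abundant at the same time, with Lyz2 averaging 148101 normalised counts in LPS+NaBu. Whether the fall of these markers has a part in the levels of the 209 genes was not tested.

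Silencing machinery was examined next, as a list of 51 genes: REST and its corepressors, histone deacetylases, Polycomb proteins and enzymes of histone H3 lysine methylation and DNA methylation. The list also holds enzymes that remove or oxidise methyl marks, among them Tet1, Tet2, Tet3, Kdm6a and Kdm6b. The counts below therefore mix both kinds: against LPS, Tet2, Tet3 and Kdm6a were among the lower and Kdm6b among the higher. Against LPS, 15 of the 50 tested (30%) were higher and 28 (56%) lower with LPS+NaBu, beside 40.2% and 37.8% of all tested genes, with a median log2 difference of -0.32 beside 0.02. With libraries scaled to the same sum, which moved the median of all tested genes by 0.28, 21 (42%) were higher and 21 (42%) lower, beside 50.3% and 27.9% of all tested genes. The list's median was 0.34 below that of all tested genes under both scalings. Against control, 12 (24%) were higher and 27 (54%) lower, beside 40.9% and 35.1% of all tested genes, with a median of -0.37 beside 0.09.

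**Figure D4:**
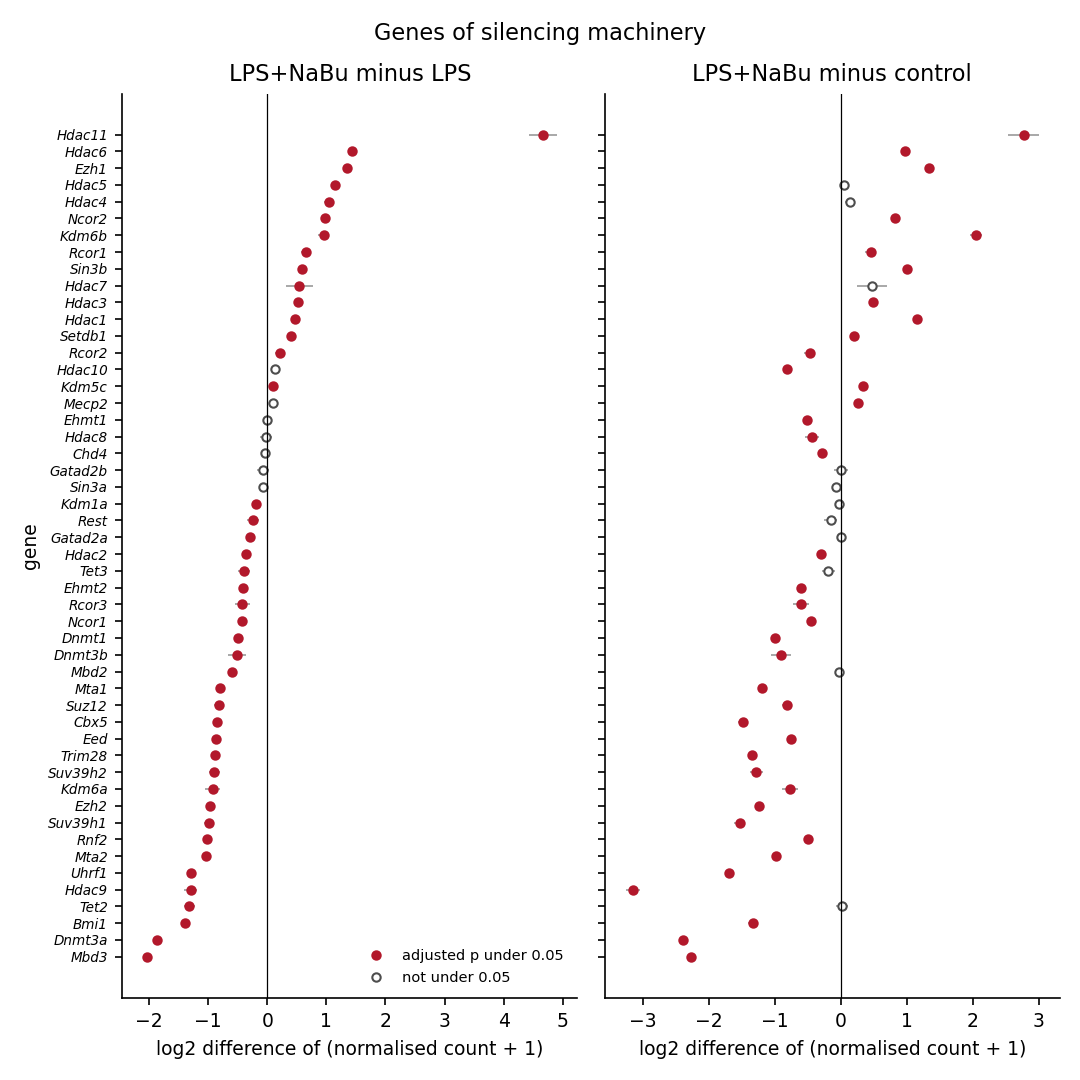
Log2 differences of normalised count + 1 for the 50 tested genes of silencing machinery, LPS+NaBu minus LPS on the left and LPS+NaBu minus control on the right, ordered by the left panel. Points are limma estimates with standard errors, filled where the adjusted p was under 0.05, and the values run from -2.04 for Mbd3 to 4.66 for Hdac11 against LPS.

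Those that fell most against LPS act in histone deacetylation, in DNA methylation or the oxidation of methylated cytosine, and in Polycomb silencing. Mbd3, a subunit of the NuRD deacetylase complex, had a mean of 1716 ± 73.8 normalised counts in LPS+NaBu, 7045 ± 490.0 in LPS and 8252 ± 632 in control (SD, n = 3 each), a log2 difference of -2.04 from LPS with a limma adjusted p of 8.59e-12. The DNA methyltransferase Dnmt3a averaged 4250.3 ± 195 in LPS+NaBu, 15549.8 ± 670.4 in LPS and 22276 ± 449 in control, a log2 difference of -1.87 from LPS with a limma adjusted p of 9.53e-13. Bmi1, of Polycomb repressive complex 1, differed by -1.40 from LPS and -1.34 from control, with limma adjusted p of 3.11e-10 and 5.49e-10. Tet2, which oxidises methylated cytosine, differed by -1.32 from LPS (limma adjusted p = 1.61e-08) and by 0.02 from control (limma adjusted p = 0.864). Rest itself averaged 2133 ± 163 in LPS+NaBu, 2546 ± 437 in LPS and 2372 ± 78.4 in control. Its log2 difference was -0.24 from LPS (limma adjusted p = 0.0362; 0.03 and 0.789 at equal library sums, where the median of all tested genes moved by 0.28) and -0.16 from control (limma adjusted p = 0.166).

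Some deacetylase genes rose. Hdac11, the class IV deacetylase, averaged 370 ± 17.6 normalised counts in LPS+NaBu, 13.8 ± 3.20 in LPS and 54.7 ± 15.1 in control (SD, n = 3 each), a log2 difference of 4.66 from LPS and 2.77 from control, with limma adjusted p of 6.82e-10 and 1.58e-07. Hdac6, the cytoplasmic tubulin deacetylase, differed by 1.43 from LPS and 0.97 from control, with limma adjusted p of 1.32e-11 and 6.45e-10. Ezh1, a Polycomb methyltransferase of resting cells, differed by 1.35 from LPS and 1.33 from control, with limma adjusted p of 2.16e-10 and 2.87e-10. Hdac5 averaged 6527 ± 340 in LPS+NaBu, 2954 ± 171 in LPS and 6323 ± 264 in control, so that it was higher than LPS (log2 1.14, limma adjusted p = 4.82e-10) and differed by 0.05 from control (limma adjusted p = 0.472).

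CpG content at the start site is a feature that the selection did not use. A start was counted as CpG-rich where the window of 500 bases on each side had a GC content of at least 50% and an observed over expected CpG ratio of at least 0.6. Of the 207 protein-coding genes of the set, 36.7% had a CpG-rich start, against 66.5% of 12352 other tested protein-coding genes and 18.1% of 7932 protein-coding genes that stayed below 10 in all 9 libraries. The set therefore lay between active and silent genes, with CpG ratios spread widely. The median ratio was 0.501 in the set, 0.712 in the other tested genes and 0.236 in the silent genes. Within the set the share was close at high and low levels: 34.9% of the 63 genes with a mean of at least 100 normalised counts and 37.0% of the 146 below had a CpG-rich start. By class, a CpG-rich start was found in 17 of 31 nerve cell genes, 12 of 24 genes of many tissues, 16 of 35 genes not assigned, 9 of 21 genes of cilia and germ cells, 3 of 9 sense organ genes, 2 of 7 muscle genes, 5 of 18 genes of lymphocytes and other blood cells, 5 of 23 epithelial genes, 4 of 20 genes of connective tissue and vessels and 3 of 21 genes of liver, kidney and metabolism.

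**Figure D5:**
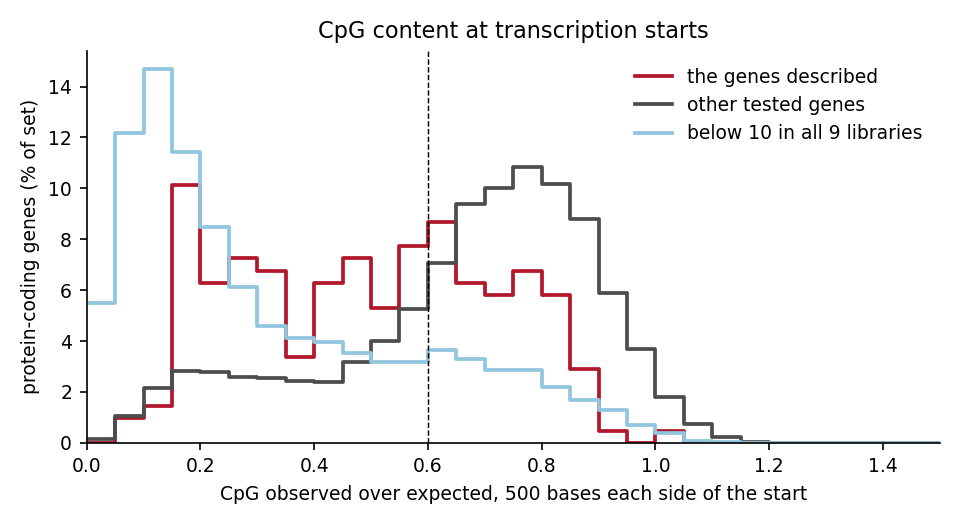
Observed over expected CpG ratio in the 500 bases on each side of the start site of protein-coding genes, as the percentage of each set per step of 0.05. The red line is the set described here (207 genes), the dark line other tested genes (12352) and the light line genes below 10 in all 9 libraries (7932), and the dashed line marks the ratio of 0.6; medians are 0.501, 0.712 and 0.236.

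Short sequence motifs were counted in the window of 250 bases before to 50 after the start. GGGCGG, the box bound by Sp-family factors, was present on either strand in 48.3% of the protein-coding genes of the set, against 56.9% of other tested and 22.0% of silent ones. The TATA box TATAAA was present on either strand in 7.25% of the set, against 8.22% of other tested and 20.7% of silent genes. For both motifs the share in the set was nearer to that of the other tested genes, and for TATAAA it was the lowest of the 3. The motif of REST, called RE1 and searched on both strands, was allowed mismatches because exact copies are rare. At least 15 of its 19 fixed bases matched within 1000 bases of the start in 9 genes of the set, all protein-coding (4.35%), against 1.96% of other tested and 1.88% of silent protein-coding genes. Those 9 were Cldn9, Hcn3, Crip2, Celf4, Ddx25, Hes2, Podnl1, Tmem179 and Lamb3, of which only Hcn3 and Celf4 are in the nerve cell class. The 3 closest, each with 16 matching bases, are shown with matching bases in capitals and the others, including the 2 unspecified ones, in lower case.
Crip2 (chr12:113103701-113103721, plus strand, ending at the start site): TTCAGCACCacaGACAGgaCC
Hcn3 (chr3:89066644-89066664, plus strand, 880 bases into the gene, in an intron): TTCAGCACCacGGACAGCaaa
Lamb3 (chr1:192983932-192983952, minus strand, 369 bases before the start site): TTCAGaACCctGGAaAGCaCC
The other 200 genes held no stretch this close to the letters searched within the window. A match is a match of letters only, and binding was not measured.

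The genes were spread over the genome. Chromosome 11 held 30 of them (14.4%, against 8.72% of other tested genes), chromosome 7 held 22 (10.5% against 7.62%), chromosome 9 held 18 (8.61% against 5.71%) and the X chromosome held 2 (0.957% against 3.11%). There were 12 pairs within 100000 bases of each other, made of 23 genes. Tbxa2r, the thromboxane receptor, and Gipc3, a hearing protein, lie 73 bases apart on chromosome 10 and averaged 38.3 and 54.6 normalised counts in LPS+NaBu. Otop2 and Ush1g overlap on chromosome 11 and averaged 79.8 and 54.9, and Mical1 and Ppil6 lie 2032 bases apart on chromosome 10 at 66.7 and 35.0. Neighbours thus did not have equal normalised counts, which are not divided by exon length. The remaining pairs included Sema3b with Sema3f, Plcd1 with Dlec1, Pnpla1 with 4930539E08Rik, Ccdc64b with Cldn9 and Lrfn3 with Aplp1.

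Neighbouring transcription bears on some of the values. For 45 of the genes another gene on the same strand ends within 5000 bases upstream. Of those upstream genes 37 were tested, and 21 were called higher and 9 lower against LPS, 56.8% and 24.3% beside 40.2% and 37.8% of all tested genes. Among those called higher was Mical1, upstream of Ppil6. Mical1 is itself in the set, so the rule fixed its call. Other upstream genes passed the filter through the LPS+NaBu libraries alone. Spata20 averaged 15.1 normalised counts in LPS+NaBu and 0 in LPS and control. Hist1h3a averaged 16.5, 3.29 and 1.20. Genes that enter the test in this way are bound to lie higher, so part of the 56.8% is built in. Nothing is therefore read from its excess over 40.2%. Apol8 lies 3582 bases after Myh9, which averaged 84050 normalised counts in LPS+NaBu, 51137 in LPS and 51780 in control, against 154 for Apol8 in LPS+NaBu. Reads running on from an upstream gene into these genes were not tested. Exons of 27 of the genes overlap exons of another gene that reached 30, in 26 cases on the opposite strand. Pla2g3 overlaps Inpp5j by 584 bases, and Inpp5j averaged 423 in LPS+NaBu, 2.90 in LPS and 14.1 in control, against 38.6 for Pla2g3 in LPS+NaBu. Usp44 overlaps Metap2 by 2489 bases, and Metap2 averaged 13625 in LPS+NaBu, 13862 in LPS and 14402 in control while Usp44 had at most 4.01 in any LPS or control library. Mical1 and Ppil6 both overlap Smpd2, which averaged 610.0 in LPS+NaBu, 169 in LPS and 361 in control. The study's methods name a directional library protocol, but the sources used here do not give the strand setting of the read counting. Reads of such pairs may therefore have been credited to either gene, and these 27 values are uncertain.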

How the data were processed

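RNA was sequenced from 9 RAW264.7 libraries. The authors' deposited signal is called FPKM but is gene counts divided by 1 size factor per library: all values (100%) were whole multiples of 1 read within 0.001, although in 3 libraries the step lies within 1% of 1, where this says little. HISAT2 and featureCounts stand in the study's methods. The submitters' processing notes instead list mm39, DESeq2 and STAR 2.7.7a, so the aligner is uncertain. Libraries were made with a directional protocol by the study's methods, but the strand setting of the counting is uncertain. Recovered reads were 37.6 to 64.4 M per library.

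Genes with at least 10 in at least 3 libraries (14808) were tested as log2(value + 1) with limma 3.58.1 in R 4.3.3, a mean per group, two-sided, Benjamini-Hochberg adjusted. The fit was tested on simulated counts. Fold changes on this scale understate low genes. Ratios of members used reads, with exact 95% intervals or a floor of 3 reads per library, covering counting error only. Identifiers of 38984 genes (89.4%) matched GENCODE M39, and start sites, exon lengths and sequences came from GRCm39.

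The genes, gene lists and tests were chosen with earlier results of these data known, and classes were assigned by hand after the names were seen. Genes named were the 12 highest, up to 4 per class, the 5 highest with 0 reads elsewhere, neighbours, those nearest the limits, transcription factors, ligands and receptors, up to 4 silencing genes with the largest change in each direction and Rest, and defining markers; other examples were chosen after their values were seen, and some genes under this rule are not reported here. Alternatives were other limits, scalings, pseudocounts, filters, tools (edgeR 4.0.16, DESeq2 1.42.0), a replicate block and leaving out each library.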

Additional observations from a re-analysis of the deposited data

How the results depend on the processing

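The number of genes selected depended on the limits: 101 at limits of 30 and 5, 115 at 50 and 10 and 53 at 100 and 10, all of them among the 209, and 312 at 20 and 10, which hold all 209. Scaling mattered less, with 234 genes at equal library sums (209 shared), 204 with TMM (202 shared) and 206 on unscaled reads (189 shared). Leaving out 1 library at a time gave 215 to 232. Scaling to equal sums moved the median log2 difference of all tested genes from LPS by 0.28, and made 64.3% of the called genes higher instead of 51.5%. Counts called higher or lower stayed within 1.5 times of the main counts under all alternatives: 5956 and 5602 against LPS, and 5171 to 5928 and 5346 to 5570 with 1 library left out. Same-numbered libraries did not deviate together (correlations of -0.0444 to 0.0202, 0 of 9 closest to their own number), so replicate numbers share only a number; with the replicate block 5904 were higher and 5560 lower against LPS, and 5995 and 5129 against control. Single genes reversed in sign: Rest against LPS at equal sums (0.0324, where the median of all tested genes moved by 0.28), Hdac5 against control with edgeR (-0.0201), and Tet2 against control with edgeR (-0.0442) and among values without single libraries (-0.0553 to 0.0621), none of them called there. Rest against LPS was also lost without 1 of 4 libraries, at adjusted p of 0.0507 to 0.173, and Cd79b against control at a pseudocount of 0.1 (adjusted p of 0.0916). Genes below about 10 normalised counts rest on a few reads each, which limits all ratios to the LPS and control levels.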
